A study of Mus musculus with 2 samples.

Results

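Nrf2, the transcription factor encoded by Nfe2l2, its inhibitor Keap1 and 8 of its antioxidant and detoxification target genes were followed in mouse hepatocytes made to express KLF14. The rule left out glutathione S-transferases but kept Mgst3, a microsomal glutathione transferase. The 10 genes were taken by symbol from the 35129 gene symbols in the tables, and all 10 were found and passed the filter of a mean of at least 1 FPKM, which 12419 genes passed. FPKM divides the fragments of a gene by the length of its model in kilobases and by the total of the library. Levels of different genes can thus be set side by side only as far as the model lengths are right. Those lengths are not given in the sources used here. The cells were primary hepatocytes of C57BL/6 mice. One group, Ad-KLF14, received an adenovirus carrying KLF14, a zinc finger factor of the Krüppel-like family, and the control group, Ad-GFP, an adenovirus labelled with green fluorescent protein that the design text calls the empty vector. Both groups were thus infected, and no uninfected culture was analysed here. Each group is 1 library, with no replicate, and whether several cultures or animals were pooled is not given in the sources used here. The same holds for virus dose, time after infection and the promoter of the insert. Every difference below is therefore between these 2 libraries, and no difference could be set against a spread between cultures.

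Under basal conditions Keap1 holds Nrf2 in the cytoplasm and, with the Cul3 ubiquitin ligase, marks it for degradation. Electrophiles and oxidants modify cysteines of Keap1, Nrf2 then accumulates, pairs with a small Maf protein and binds antioxidant response elements near genes for glutathione synthesis, thioredoxin reduction, NADPH supply and detoxification. Control of Nrf2 is thus largely at the protein level, and transcript levels alone do not report its activity. In liver the pathway is known for protection against drug and oxidant injury.

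The Ad-KLF14 and Ad-GFP libraries held 11151711 and 11311344 reads by the steps of their values. Klf14 was at 13164 FPKM with Ad-KLF14 and 0.298 FPKM with Ad-GFP, and pairs of values below keep that order, with reads from the insert and the endogenous gene not told apart. The 7 hepatocyte markers summed to 4750 against 5740 FPKM, mostly from Alb (4172 against 5115), but did not share a direction: Ttr was at 251 against 255, Hnf4a at 34.1 against 26.2 and Tat at 8.07 against 4.80. The 7 macrophage markers summed to 201 against 133 FPKM, with Cd68 at 160 against 71.1, Mpeg1 at 17.1 against 40.1 and the Kupffer cell marker Clec4f at 0.411 against 0.332. The 5 cholangiocyte markers summed to 44.2 against 113 FPKM, nearly all from Cldn4, and Krt7 was listed at 0 in both libraries. The 5 endothelial markers summed to 6.45 against 8.17 FPKM, with Oit3 at 0.990 against 3.87 but Pecam1 at 2.03 against 1.12 and Cdh5 at 2.09 against 1.75. The sum was 0.184 against 0.523 FPKM for stellate cell and fibroblast markers. The part of these other cells in the differences below was not tested, and in bulk RNA fewer cells of a type and less RNA per cell cannot be told apart.

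Promoter stretches are shown for 5 of the 10 genes: Nfe2l2 and Mgst3 because they differed most between the libraries, and Gclm, Txnrd1 and Srxn1 because their RefSeq promoter windows, 250 bases before to 50 after a start site, hold an element of the Nrf2 type. Only bases before the start are printed, 5′ to 3′ on the gene's strand. Capitals mark every match, on either strand, to the core of the antioxidant response element (TGACNNNGC), to the related NF-E2 type element TGANTCAGC, or to the GC box GGGCGG, the type of sequence bound by SP and Krüppel-like factors. The NF-E2 type element and the GC box were added to the search after the sequences had been seen.
Nfe2l2: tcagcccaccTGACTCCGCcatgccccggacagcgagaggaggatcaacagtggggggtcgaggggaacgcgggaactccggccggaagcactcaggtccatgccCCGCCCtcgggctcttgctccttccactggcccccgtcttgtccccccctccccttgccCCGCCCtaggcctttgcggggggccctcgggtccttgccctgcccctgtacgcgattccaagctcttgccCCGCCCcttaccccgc
Mgst3: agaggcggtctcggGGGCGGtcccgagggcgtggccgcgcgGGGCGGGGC
Gclm: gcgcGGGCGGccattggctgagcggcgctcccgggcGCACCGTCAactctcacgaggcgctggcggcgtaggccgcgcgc
Txnrd1: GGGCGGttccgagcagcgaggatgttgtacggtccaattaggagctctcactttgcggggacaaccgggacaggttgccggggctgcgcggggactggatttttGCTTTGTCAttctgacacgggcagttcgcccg
Srxn1: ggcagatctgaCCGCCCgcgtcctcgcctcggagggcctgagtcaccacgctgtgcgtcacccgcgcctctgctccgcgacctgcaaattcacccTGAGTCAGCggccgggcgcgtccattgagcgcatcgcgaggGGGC

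On GRCm38.p6 these stretches lie at chr2:75704664-75704913 (minus strand, Nfe2l2), chr1:167393842-167393891 (minus strand, Mgst3), chr3:122245387-122245466 (plus strand, Gclm), chr10:82859010-82859145 (plus strand, upstream of the second of 3 Txnrd1 start sites in the table) and chr2:152105384-152105523 (plus strand, Srxn1). In Nfe2l2 the response element core stands at positions -240 to -232 from the start site and 3 GC boxes, all on the opposite strand, follow nearer to the start. In Gclm the core is at -134 to -126 and in Txnrd1 at -92 to -84, both on the opposite strand. Srxn1 has its NF-E2 type element at -45 to -37 and a match to the core after the start site, which is not printed. Mgst3 has no match to the core and 4 GC boxes, of which 1 lies wholly after the start and is not printed, and 2 overlap at the end of the stretch. The capitals GGGC at the end of Srxn1 are the first bases of a GC box that runs over the start site.

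Of the 9 genes with a window in the table (all but Gclc), 4 hold the core: Nfe2l2, Gclm, Txnrd1 and Srxn1. It stood in 12.4% of all 32851 windows and in at least 1 window of 17.4% of the 8031 genes past the filter that have a window. The NF-E2 type element was in 1 of the 9 genes, Srxn1, beside 1.19% of all windows and 1.42% of genes past the filter. GC boxes were in 8 of the 9 genes, the exception being Slc7a11, beside 35.7% of all windows and 69.9% of genes past the filter. The windows of Keap1, Nqo1, Slc7a11, Ephx1 and Mgst3 hold no match to the core. This says only that these letters are not in windows of this length, and elements farther away were not searched.

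The transcript of Nrf2 itself was lower with Ad-KLF14, and 7 of the 8 target transcripts differed by less than 2-fold, as did 84.6% of all genes past the filter. Nfe2l2 and Mgst3 were the 2 of 10 genes at least 2-fold lower on log2(FPKM + 1), beside 8.99% of all genes past the filter, and 0 of 10 were at least 2-fold higher, beside 6.37%. The other 8 genes lay within 1.5-fold on that scale, beside 62.3% of all genes. Gclm (log2 ratio -0.58), Keap1 (-0.57) and Gclc (0.56) were close to that limit, so this count depends on the processing. With a pseudocount of 0.1 FPKM, for example, Keap1 was at -0.61, beyond it. Of the 10 genes 8 were below 0, beside 51.7% of all genes, and their median log2 ratio was -0.34, beside -0.03 over all genes. The 8 target genes alone had a median of -0.20, with 2 above 0 and 6 below.

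**Figure D1:**
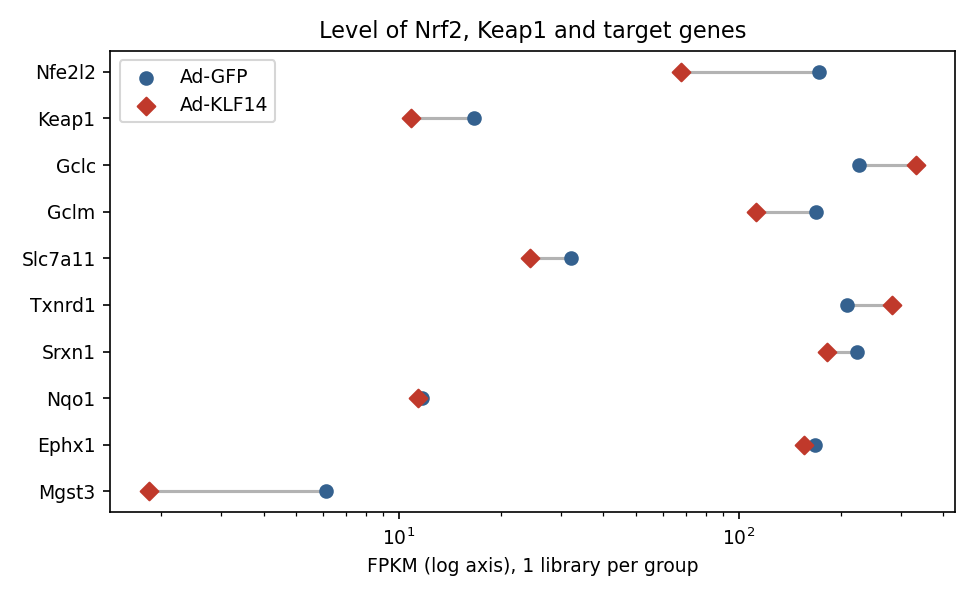
Level of each gene in FPKM on a log axis, with 1 point per library (circles Ad-GFP, diamonds Ad-KLF14) and a grey line joining both. Nfe2l2 and Mgst3 have the longest lines, while Gclc and Txnrd1 are the 2 genes with the diamond on the right.

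Among the regulators, Nfe2l2 was at 67.8 FPKM in the Ad-KLF14 library and at 172 FPKM in the Ad-GFP library, from at least 1866 and 4814 reads. It was 2.54-fold lower (95% counting interval 2.41 to 2.68), a log2 ratio of -1.33, and 4.20% of all genes past the filter had a ratio as low or lower. Its rank by level among those genes was 388 in the Ad-GFP library and 1261 in the Ad-KLF14 library. Of the 742 genes whose mean reached 100 FPKM, as that of Nfe2l2 did, 49 (6.60%) were at least 2-fold lower.

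Keap1, the substrate adaptor that captures Nrf2, was at 10.9 against 16.7 FPKM from at least 361 and 561 reads. It was 1.53-fold lower (counting interval 1.34 to 1.75). Keap1 and Nfe2l2 thus stood lower in the same library, but to different degrees: the level of Nfe2l2 was 6.24 times that of Keap1 in the Ad-KLF14 library and 10.4 times in the Ad-GFP library. Exons of Keap1 overlap the antisense gene model Gm16754 in the GENCODE annotation, and whether the authors counted by strand is not given in the sources used here.

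The genes of glutathione synthesis went in different directions. Gclc, the catalytic subunit of glutamate-cysteine ligase, which carries out the rate-limiting step, was at 334 against 226 FPKM from at least 8613 and 5912 reads, 1.48-fold higher (counting interval 1.43 to 1.53). Gclm, the modifier subunit that raises the affinity of the enzyme for glutamate, was at 112 against 169 FPKM from at least 1842 and 2807 reads, 1.5-fold lower (counting interval 1.42 to 1.59). The level of Gclc was 2.97 times that of Gclm in the Ad-KLF14 library and 1.34 times in the Ad-GFP library, so the ratio of the subunit transcripts differed 2.22-fold. The exons of Gclm overlap 2 other gene models, the antisense Gm17494 and Gm6061, the latter listed at 0.856 against 1.45 FPKM.

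Slc7a11 is the light chain of the cystine-glutamate exchanger, which brings in cystine as a source of cysteine for glutathione. A known target of ATF4 as well as of Nrf2, it was at 24.4 against 32.1 FPKM. It was 1.32-fold lower (counting interval 1.25 to 1.39) from at least 2508 and 3354 reads. Its heavy chain partner Slc3a2, named here although the rule did not choose it, was at 94.0 against 159 FPKM, 1.69-fold lower (counting interval 1.62 to 1.77). Both chains of the exchanger were thus lower in the same library.

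In the thioredoxin branch, Txnrd1, the cytosolic selenoenzyme that reduces thioredoxin with NADPH, was at 283 against 208 FPKM from at least 11475 and 8567 reads. It was 1.36-fold higher (counting interval 1.32 to 1.40) and, with Gclc, 1 of the 2 genes above 0. Its substrate gene Txn1, also outside the naming rule, was at 247 against 363 FPKM, so the level of Txnrd1 was 1.15 times that of Txn1 in the Ad-KLF14 library and 0.574 times in the Ad-GFP library. Srxn1, which repairs over-oxidised peroxiredoxins, was at 182 against 223 FPKM from at least 5236 and 6520 reads, 1.23-fold lower (counting interval 1.18 to 1.27).

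Of the detoxification enzymes, Nqo1, the quinone reductase often used as the reporter of Nrf2 activity, was at 11.4 against 11.7 FPKM from at least 197 and 206 reads. Its ratio was 0.970 with a counting interval of 0.794 to 1.19, the only one of the 10 intervals that holds 1, so no difference was detectable at this depth. Ephx1, the microsomal epoxide hydrolase, was at 156 against 168 FPKM from at least 2888 and 3161 reads, with a ratio of 0.927 (counting interval 0.881 to 0.975). Exons of Ephx1 overlap the gene model Gm36961 on the same strand. Both Nqo1 and Ephx1 lay close to even.

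Mgst3, a microsomal glutathione transferase and peroxidase of the membrane-bound MAPEG family, was at 1.84 against 6.13 FPKM. It was 3.34-fold lower, but from only 13 and 44 reads, and its counting interval runs from 1.77 to 6.75. It was the least abundant of the 10 genes in both libraries, so the pseudocount weighs most on it: with 5 in place of 1 FPKM its log2 ratio was -0.70, under 2-fold, instead of -1.33.

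**Figure D2:**
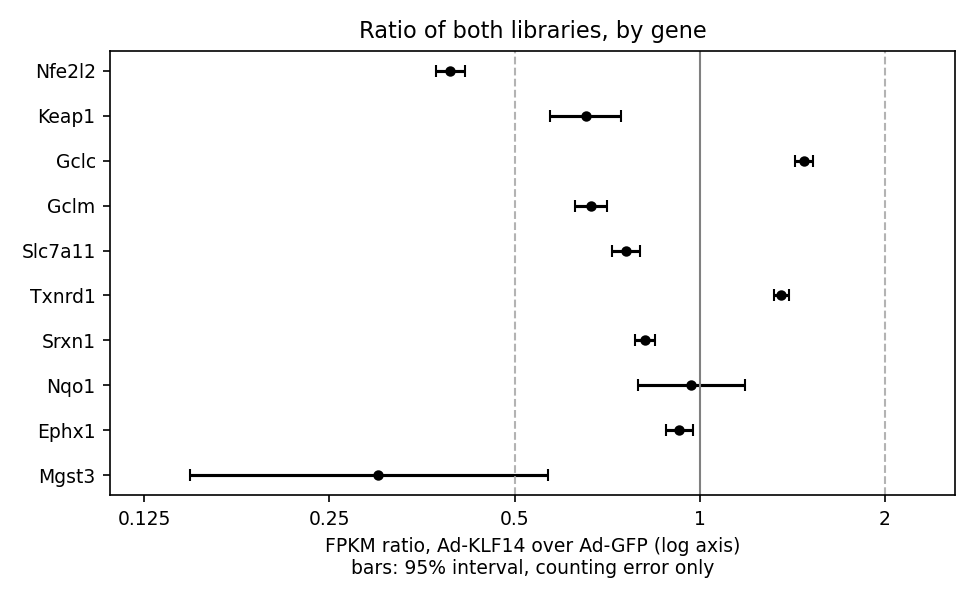
Ratio of the FPKM values, Ad-KLF14 over Ad-GFP, on a log axis, with 95% intervals that cover counting error only and dashed lines at 0.5 and 2. The Nfe2l2 interval lies wholly below 0.5, that of Mgst3 runs from 0.148 to 0.567, and that of Nqo1 spans 1.

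The order of the levels was not the same in both libraries, and with 1 library a group no neighbours in it could be set against a spread. In the Ad-GFP library Gclc, Srxn1 and Txnrd1 lay between 208 and 226 FPKM, Nfe2l2, Gclm and Ephx1 between 168 and 172 FPKM, and the others at 32.1 FPKM or less. In the Ad-KLF14 library Gclc and Txnrd1 stood at 334 and 283 FPKM, Srxn1 and Ephx1 at 182 and 156 FPKM, and Gclm and Nfe2l2 at 112 and 67.8 FPKM. Of the 10 genes 6 were above 100 FPKM in the Ad-GFP library and 5 in the Ad-KLF14 library, Nfe2l2 being the one that was not. Gclc ranked 278 among all genes past the filter in the Ad-GFP library and 147 in the Ad-KLF14 library.

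**Figure D3:**
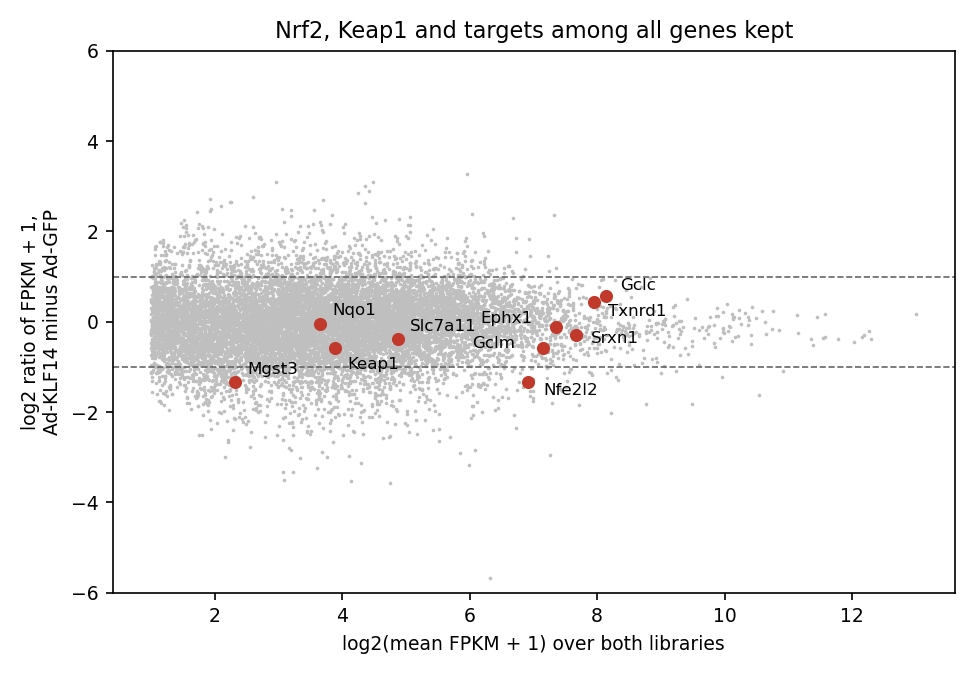
Log2 ratio of FPKM + 1 (Ad-KLF14 minus Ad-GFP) against log2(mean FPKM + 1), with grey points for the genes past the filter, Klf14 left out, red points for the 10 genes and dashed lines at 2-fold. Nfe2l2 lies below the lower line among abundant genes and Mgst3 below it among low ones, while the other 8 lie between the lines.

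Further regulators of Nrf2 also went both ways. Of 18 listed, 16 passed the filter, 2 of them higher and 0 lower by at least 2-fold, beside 6.37% and 8.99% of all genes. Below 0 were 10 of the 16, beside 51.7% of all genes, and the median was -0.24. Mafk, a small Maf protein with which both Nrf2 and its competitor Bach1 pair, was at 64.2 against 17.6 FPKM, 3.64-fold higher (counting interval 3.31 to 4.0). Brca1, a DNA repair protein reported to stabilise Nrf2, was at 19.4 against 5.07 FPKM, 3.83-fold higher (counting interval 3.42 to 4.3). Btrc and Gsk3b, which serve the Keap1-independent degradation of Nrf2, were 2.29-fold lower (2.03 against 4.64 FPKM) and 1.96-fold lower (5.48 against 10.7 FPKM), both under 2-fold with the pseudocount.

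Values of some partners and relatives outside the naming rule follow. The repressor Bach1, which competes with Nrf2 for the same elements, was at 19.1 against 12.6 FPKM, 1.52-fold higher (counting interval 1.39 to 1.66). The related activator Nfe2l1 was at 19.7 against 31.7 FPKM and the ligase scaffold Cul3 at 42.3 against 62.4 FPKM. The level of Nfe2l2 was 3.55 times that of Bach1 in the Ad-KLF14 library and 13.7 times in the Ad-GFP library. Level ratios of the other gene pairs computed shifted less than those of the pairs given in this report. Nfe2l2 over Nfe2l1 was 3.44 against 5.43 and Slc7a11 over Slc3a2 0.259 against 0.202. Srxn1 over Nqo1 was 16.0 against 19.0 and Gclc over Gss 3.29 against 3.997. How far such ratios shift over all gene pairs was not computed. The other Maf genes Maff and Mafg were at 68.4 against 48.0 and 16.9 against 20.3 FPKM, so the 3 small Maf transcripts did not share a direction.

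Of 62 further genes in 5 groups, listed here as targets of Nrf2, 60 passed the filter. The list was put together for this report, and whether each gene is an established target was not checked. Of the 60, 1 was higher and 4 were lower by at least 2-fold, both smaller shares than the 6.37% and 8.99% of all genes. The 4 include Akr1b10, which passed the filter only through its level in the Ad-GFP library. Below 0 were 42 and above 0 were 18, beside 51.7% of all genes below 0, and the median log2 ratio was -0.27. As with the 10 genes, most differences were small: 38 of the 60 lay within 1.5-fold, a share close to the 62.3% of all genes past the filter.

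The group of glutathione, thioredoxin and peroxiredoxin genes had the lowest median, -0.49, with 13 of 17 genes below 0, beside 51.7% of all genes. All 17 were under 2-fold, beside 84.6% of all genes. The peroxiredoxins Prdx4 and Prdx6, which reduce peroxides, were at 106 against 207 and 126 against 225 FPKM, 1.95-fold and 1.79-fold lower. The mitochondrial thioredoxin reductase Txnrd2 was at 7.91 against 15.0 FPKM, 1.90-fold lower, whereas its cytosolic relative Txnrd1 was higher. Gss, the second enzyme of glutathione synthesis, was at 102 against 56.5 FPKM, 1.80-fold higher (counting interval 1.67 to 1.93), and so went the way of Gclc and not of Gclm.

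Of the 6 genes that supply NADPH, 5 were below 0, beside 51.7% of all genes, and the median was -0.31. G6pdx, the entry enzyme of the pentose phosphate pathway, was at 6.10 against 16.7 FPKM, 2.74-fold lower (counting interval 2.31 to 3.27). Tkt of the same pathway was at 52.7 against 97.4 FPKM, 1.85-fold lower, while Pgd (148 against 177 FPKM) and the cytosolic isocitrate dehydrogenase gene Idh1 (19.5 against 25.1 FPKM) differed less.

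Heme and iron genes had a median of -0.25, with 6 of 7 below 0, beside 51.7% of all genes. Hmox1, the inducible heme oxygenase and a target of Nrf2 and Bach1, was at 124 against 199.5 FPKM from at least 2181 and 3557 reads, 1.61-fold lower (counting interval 1.52 to 1.70). The heme transporter gene Slc48a1 was at 81.8 against 167 FPKM, 2.04-fold lower. Of the biliverdin reductases, Blvrb was at 83.3 against 142 FPKM and Blvra at 29.8 against 21.6 FPKM. The biliverdin reductase transcripts thus differed in opposite directions.

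The 23 detoxification and transport genes had a median of -0.24. By at least 2-fold 1 was higher and 2 were lower, beside 6.37% and 8.99% of all genes. The count of lower genes is thus near its share. The canalicular exporter of glutathione conjugates Abcc2 was at 97.3 against 41.3 FPKM, 2.36-fold higher, and the carbonyl reductase Cbr1 at 95.4 against 51.4 FPKM, 1.85-fold higher. The aldo-keto reductases Akr1b10 and Akr7a5 were at 0.535 against 2.97 and 6.20 against 14.4 FPKM, 5.55-fold and 2.32-fold lower, the former from 8 and 45 reads (counting interval 2.59 to 13.6). Akr1b10 passed the filter only through its level in the Ad-GFP library, so it had to be lower, and its place in the counts supports nothing. The remaining 7 antioxidant genes had a median of 0.13, with 4 above 0 and 3 below, beside 51.7% of all genes below 0. All 7 were under 2-fold, beside 84.6% of all genes. Osgin1, an oxidant-induced growth inhibitor, was at 435 against 266 FPKM (1.63-fold higher) and Sesn2 at 47.1 against 33.5 FPKM, while Msra and Pir were at 5.01 against 8.18 and 9.02 against 13.6 FPKM.

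**Figure D4:**
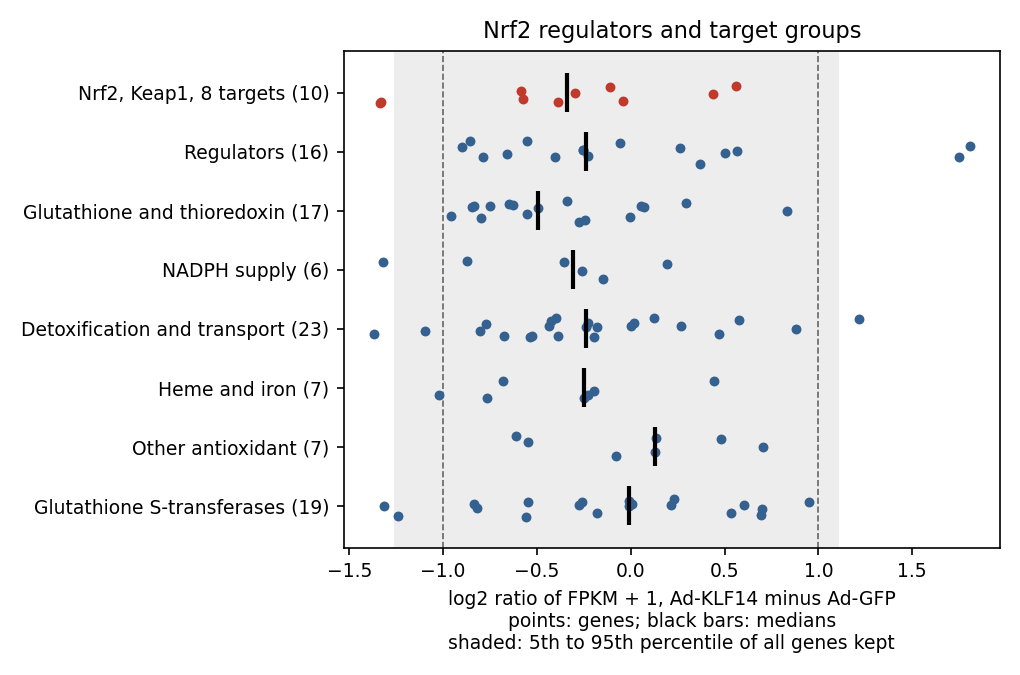
Log2 ratio of FPKM + 1 (Ad-KLF14 minus Ad-GFP) of each gene past the filter, in rows by group with the number of genes, with black bars at the medians, dashed lines at 2-fold and shading from the 5th to the 95th percentile of all genes past the filter (-1.25 to 1.10). The medians lie between -0.49 and 0.13, and Mafk and Brca1 are the 2 points farthest to the right.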

How the data were processed

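Poly-A or other selection, read length and strand handling are not given in the sources used here. Per the labels' protocols, total RNA was taken up in Trizol and an Illumina TruSeq RNA kit was used, and per the submitters' processing notes the reads were handled with Bowtie 0.12.2 on mm8. The series' design text names other aligners and retinal samples in triplicate, unlike the 1 hepatocyte library per group here. It may thus belong in part to another study, and that doubt extends to its naming of the empty vector. The authors deposited FPKM values, 1 table per library, and their gene models and counting rule are not given in the sources used here.

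Genes whose mean reached 1 FPKM were compared on the log2(FPKM + 1) scale, where a low gene shows too small a difference. Named folds are plain FPKM ratios. Library totals were found from the steps of the values: for 16943 of 16944 genes above 0 in both libraries the ratio was one of whole numbers times 1 constant (relative tolerance 1e-13), and of 30 candidate multiples of the smallest totals the one used placed 33.0% of 7496 implied gene lengths within 1% of a reference transcript, against at most 6.98% for any other. Reads of a gene are the smallest numbers that fit, so they are lower limits and intervals may be too wide. For Keap1 they were divided by 3 and for Mafk by 2 and rounded down, because the implied length exceeded every reference transcript. The divided numbers of these genes no longer fit the FPKM values exactly. Intervals (95%, exact, by the Clopper-Pearson method) were computed from these reads and cover counting error only. The steps were tried on simulated data with gene lengths drawn from the same reference transcripts. That cannot show whether they hold for the authors' gene models, which are unknown.

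No test between conditions was possible. The genes and lists were chosen with earlier results of these data known. The text names all 10 genes, Klf14, Hmox1 and the 4 genes of each list with the largest log2 ratios in size, and says where another gene is named. List symbols were matched to the files directly or through older RefSeq names. Alternatives were 2 other pseudocounts, 2 other filters and 4 rescalings. Sequences come from the RefSeq promoter table for GRCm38.p6, while the files' own build is mm8 and no coordinate was carried between them. Analyses used Python 3.11.15, numpy 2.4.6, pandas 2.3.3, scipy 1.17.1 and matplotlib 3.10.9.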

Additional observations from a re-analysis of the deposited data

How the results depend on the processing

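No paired analysis was possible because each group is 1 library. The 2 filters cannot move the ratio of a single gene. Under the other 6 alternatives Nfe2l2 was at least 2-fold lower (log2 ratios from -1.35 to -1.25), and Gclc (0.55 to 0.71) and Txnrd1 (0.43 to 0.59) were above 0. Keap1 (-0.61 to -0.45), Gclm (-0.59 to -0.49), Slc7a11 (-0.40 to -0.30) and Srxn1 (-0.30 to -0.17) were below 0. Ephx1 was below 0 as well (-0.11 to -0.02), but at its highest value it was nearly even. Nqo1 lay between -0.04 and 0.05 and was above 0 when the FPKM values were scaled to a sum of 1000000 without Klf14, under which the median of the 10 genes was -0.25. With a pseudocount of 5 FPKM 1 of the 10 genes was at least 2-fold lower. With a mean of at least 5 FPKM, which leaves Mgst3 out, 1 of the remaining genes was, beside 8.67% of all genes past that filter. With a pseudocount of 5 FPKM 0 of the further listed genes were at least 2-fold lower, and over all genes past the filter the share fell from 8.99% to 3.76%. Of the log2 ratios of the 10 genes under those 6 alternatives, 49 moved by less than the half-width of their counting interval and 11 by more.

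With 1 library per group, variation between cultures was not measured. At the totals given, 3 reads on a 2000-base gene equal 0.135 FPKM (Ad-KLF14) or 0.133 FPKM (Ad-GFP), and among the 10 genes only Mgst3 rests on fewer than 100 reads.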

Other observations

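The glutathione S-transferases, the largest family of Nrf2-responsive detoxification genes in liver, lay on both sides of even. Of 21 listed genes 19 passed the filter, with 8 above 0, 11 below, 2 at least 2-fold lower, 0 at least 2-fold higher and a median log2 ratio of -0.01. Over all genes past the filter 8.99% were at least 2-fold lower, 6.37% at least 2-fold higher and 51.7% below 0, so the counts of lower genes are near those shares. The cytosolic theta class gene Gstt1 was at 9.51 against 25.1 FPKM (2.64-fold lower, counting interval 2.12 to 3.32) and Gsta4, which detoxifies lipid peroxidation products, at 8.05 against 20.4 FPKM (2.53-fold lower, counting interval 1.97 to 3.29). Gstm1 was at 256 against 132 FPKM (1.94-fold higher) and Gstm4 at 3.87 against 7.68 FPKM (1.99-fold lower). The Gstm genes are similar in sequence and the authors' treatment of reads with several matches is not given in the sources used here, so the split between them is uncertain.

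Named after their values were seen, Mgst1, a relative of Mgst3 in the membrane-bound family, was at 446 against 658 FPKM, 1.47-fold lower, and Mgst2 was listed at 0 against 0.150 FPKM. Mgst1 thus exceeded Mgst3 by far in both libraries and differed less between them, although the fold of Mgst3 rests on only 13 and 44 reads. No interval is given for Mgst1, because its smallest fitting reads imply a length of only 62.9 bases.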
